A study of Xenopus laevis with 27 samples.

Results

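The genes described here are the Yap targets Ccn1 and Ccn2, 3 further genes known as Yap targets, and the genes of the Yap and Taz machinery, followed through regeneration of the amputated tail of the frog Xenopus laevis. They are the rows of the deposited count table whose symbol, without a final .L or .S, is ccn1, ccn2, ankrd1, amotl2, lats2, yap1, wwtr1 or tead1. These 8 symbols gave 14 rows of the 29776 in the table: ccn1, amotl2, lats2, yap1, wwtr1 and tead1 have both an .L and an .S copy, and ccn2.L and ankrd1.L stand alone. The species is an allotetraploid, and L and S name its long and short subgenomes, so the copies of one gene are homeologs that can share reads. RNA was sequenced from amputated tails of regenerative-stage embryos, 20 embryos to a library, with 3 libraries (A, B and C) at each of 9 times: 0, 30, 60 and 90 minutes after the cut (mpa), 3 and 6 hours after it (hpa), and 1, 3 and 7 days after it (dpa). All groups share the amputation and the culture medium with gentamycin, no transgene or drug treatment is labelled, and the 0 mpa group is the baseline. The labels call the 3 libraries biological triplicates and do not say whether they came from separate clutches, so the p-values reflect how much these libraries vary, which may be technical.

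Yap and its paralog Taz, encoded by yap1 and wwtr1, are transcriptional coactivators that carry no DNA-binding domain of their own and act mainly through TEAD factors such as the product of tead1. The LATS kinases of the Hippo pathway phosphorylate Yap and Taz and keep them out of the nucleus, so their activity is set largely by phosphorylation and location, which RNA levels do not show. Ccn1 (Cyr61) and Ccn2 (connective tissue growth factor) are secreted matricellular proteins that bind integrins and heparan sulfate proteoglycans, and their genes are classical readouts of Yap and Taz, although serum response factor and TGF-beta signalling also act on them.

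Counts summed to 4186706 to 6332675 in 24 of the 27 libraries. The other 3 were shallow: 6 hpa C held 1207557 counts, 90 mpa C 367958 and 7 dpa C only 19187. In addition, 1 dpa B and 3 dpa B detected fewer genes than others at equal depth. In 7 dpa C, 10 of the 14 genes had 0 reads, and 0 reads there allow a level of up to 51.7 counts per 1000000 (CPM), so the 7 dpa values rest on libraries A and B. The tail label fits its muscle and heart markers. At 0 mpa the summed level of 25 skeletal muscle marker rows was 137700 to 231400 CPM. The 10 heart rows summed to at most 22.4 CPM in any library at that time, with 0 reads of gata4.L, tbx5.L and tbx20.L. The 19 notochord rows summed to 8950 to 11000 CPM, mostly from col2a1.L (mean 3927 CPM) and col2a1.S (5027 CPM). Among the other notochord rows col9a1.L averaged 641.9 CPM, cnmd.L 184.5 CPM, epyc.L 103.2 CPM and shh.L 26.5 CPM. Others were low, with tbxt.L at 0.60 CPM, tbxt.S at 1.48 CPM and 0 reads of not.S. Levels are CPM after scaling of library sizes by trimmed mean of M-values (TMM). They are not divided by gene length and compare one gene between libraries, not one gene with another.

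All 14 genes were tested. Over the 9 times jointly, 4 of them changed at an adjusted p under 0.05 (edgeR quasi-likelihood test, Benjamini-Hochberg over 22268 genes): ccn1.L (adjusted p = 8.69e-08), ccn2.L (adjusted p = 1.02e-05), ccn1.S (adjusted p = 0.000129) and wwtr1.L (adjusted p = 0.000508). Among all genes tested, 15.8% changed over the 9 times. The 4 genes that changed followed 3 courses. Both ccn1 copies were high at 30 and 60 mpa, ccn2.L was higher from 60 mpa with its highest mean at 7 dpa, and wwtr1.L had its highest means at 3 and 6 hpa. Without the 5 shallow or low-complexity libraries, 9 of the 14 genes passed, and the number among all genes rose from 3524 to 6311. The additional 5 were amotl2.L, amotl2.S, lats2.L, tead1.L and yap1.S, with adjusted p between 0.000165 and 0.0489.

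ccn1.L was measured at 71.1, 74.1 and 53.3 CPM at 0 mpa in libraries A, B and C, at 198, 213 and 259 CPM at 30 mpa, and at 267, 203 and 185 CPM at 60 mpa. At 90 mpa it was measured at 93.8, 70.5 and 48.3 CPM, at 3 hpa at 112, 114 and 86.4 CPM, and at 6 hpa at 60.0, 38.0 and 46.9 CPM. Its levels were 65.7, 47.3 and 31.5 CPM in the 1 dpa libraries, 75.95, 40.0 and 86.5 CPM in those of 3 dpa, and 116 and 101 CPM in 7 dpa A and B, with 0 reads in 7 dpa C. All 6 libraries of 30 and 60 mpa lay above every other library, and the 90 mpa libraries overlapped those of 0 mpa.

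The ccn1.L level at 30 mpa was 3.38-fold that at 0 mpa (log2 fold change 1.76 ± 0.37, SE, adjusted p = 0.00527), and the level at 60 mpa was 3.30-fold (1.72 ± 0.37, adjusted p = 0.003). Neither call stood in every fit that left out 1 library: the 30 mpa call was lost without 0 mpa C (adjusted p = 0.112) or 30 mpa C (adjusted p = 0.0584), and the 60 mpa call without 0 mpa C (adjusted p = 0.0587). From 90 mpa on, no time differed from 0 mpa at the threshold with all libraries, with log2 fold changes between -0.46 at 1 dpa and 0.65 at 3 hpa. The 3 hpa libraries (86.4 to 114 CPM) lay above those of 0 mpa (53.3 to 74.1 CPM), whereas the 90 mpa libraries before them did not. The 3 hpa change of ccn1.L (adjusted p = 0.535) passed in the 6 libraries of those times alone (0.63, adjusted p = 0.0317). It also passed when the 5 libraries of low depth or complexity were left out (0.66, adjusted p = 0.0498). Without those 5 the 7 dpa change of ccn1.L passed as well (0.73, adjusted p = 0.031), against 0.50 with all libraries (adjusted p = 0.58). Because these are bulk samples, fewer cells of a type and less RNA per cell cannot be told apart.

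ccn1.S traced a like course. It was at 32.9, 23.7 and 21.8 CPM at 0 mpa, at 144, 127 and 147 CPM at 30 mpa, and at 128, 86.3 and 137 CPM at 60 mpa. From 90 mpa to 7 dpa its libraries lay between 2.00 CPM in 1 dpa B (9 reads) and 66.5 CPM in 90 mpa C, below every library of 30 and 60 mpa. The level at 30 mpa was 5.31-fold that at 0 mpa (2.41 ± 0.51, adjusted p = 0.0111), and that at 60 mpa 4.47-fold (2.16 ± 0.51, adjusted p = 0.0153). At 7 dpa ccn1.S was at 56.8 and 54.4 CPM in A and B, above the 0 mpa libraries, with 1 read in C. This change was 0.99 ± 0.52 (adjusted p = 0.334), and it passed at 1.11 without the 5 shallow or low-complexity libraries (adjusted p = 0.00667).

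Both ccn1.S calls depended on single libraries. The 30 mpa call was lost without 0 mpa B (adjusted p = 0.143), 0 mpa C (0.141) or 30 mpa C (0.0505), and also without 90 mpa C and 7 dpa C together (0.0749) or the 3 shallow libraries (0.0873). The 60 mpa call was lost without 0 mpa A (0.0523), 0 mpa B (0.14), 0 mpa C (0.13), 60 mpa A (0.0545) or 60 mpa C (0.0795), without those same 2 and 3 shallow libraries (0.0643 and 0.0753) and with another scaling (0.0544). In those fits the log2 fold change of ccn1.S stayed between 2.03 and 2.42, and without all 5 shallow or low-complexity libraries its adjusted p was 1.07e-07 at 30 mpa and 3.97e-07 at 60 mpa.

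**Figure D1:**
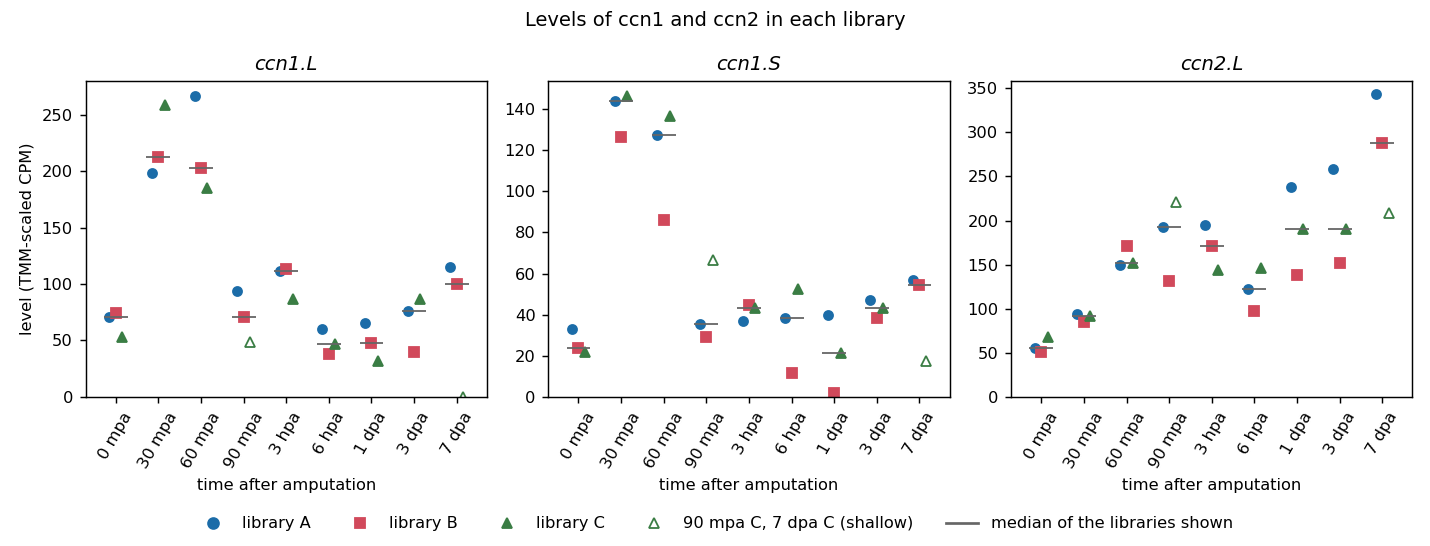
Level of ccn1.L, ccn1.S and ccn2.L in TMM-scaled CPM (y axis) in each library against the time after amputation (x axis); coloured points are libraries A, B and C, open points the shallow libraries 90 mpa C and 7 dpa C, and short bars the median. Both ccn1 copies stand highest at 30 and 60 mpa, whereas ccn2.L stands lowest at 0 mpa and reaches 344 CPM in 7 dpa A.

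ccn2.L took another course. It was at 55.0, 50.9 and 67.6 CPM at 0 mpa, at 94.0, 84.4 and 91.2 CPM at 30 mpa, and at 150, 171 and 152 CPM at 60 mpa. At 90 mpa it was at 193, 131 and 221 CPM, at 3 hpa at 195, 171 and 144 CPM, and at 6 hpa at 122, 97.2 and 146 CPM. Its levels were 238, 138 and 191 CPM in the 1 dpa libraries, 259, 152 and 190 CPM in those of 3 dpa, and 344, 288 and 208 CPM in those of 7 dpa, of which the last rests on 12 reads in 7 dpa C. Each of the 24 later libraries lay above the 3 of 0 mpa, and 6 hpa was the lowest time after 30 mpa.

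Against 0 mpa, ccn2.L rose 2.72-fold at 60 mpa (log2 fold change 1.44 ± 0.33, adjusted p = 0.00646), 3.10-fold at 90 mpa (1.63 ± 0.34, adjusted p = 0.00098) and 2.94-fold at 3 hpa (1.56 ± 0.33, adjusted p = 0.00105). It rose 3.26-fold at 1 dpa (1.71 ± 0.33, adjusted p = 0.000424), 3.46-fold at 3 dpa (1.79 ± 0.33, adjusted p = 8.39e-05) and 5.04-fold at 7 dpa (2.33 ± 0.35, adjusted p = 8.91e-07). The log2 fold change was 0.63 ± 0.33 at 30 mpa (adjusted p = 1) and 1.07 ± 0.33 at 6 hpa (adjusted p = 0.0532), neither past the threshold. The calls at 90 mpa, 3 hpa, 1 dpa, 3 dpa and 7 dpa stood in all 35 alternative fits, and the 60 mpa call was lost without 0 mpa A (adjusted p = 0.0799) or 0 mpa B (0.104). Without 7 dpa C the 7 dpa change of ccn2.L was 2.48 ± 0.30 (adjusted p = 2.3e-08). At 6 hpa the change passed in 8 alternatives, among them DESeq2 (adjusted p = 0.0256) and the fit without 7 dpa C (adjusted p = 0.0122).

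The levels of each gene were also put in order by their mean, leaving out 7 dpa C. For ccn1.L, 30 mpa (223.5 CPM) and 60 mpa (218.3 CPM) led and their library ranges overlapped, a gap followed to 7 dpa (108.1 CPM), and from there down to 1 dpa (48.2 CPM) each time overlapped the next. For ccn1.S the same gap fell between 60 mpa (116.9 CPM) and 7 dpa (55.6 CPM). For ccn2.L, 7 dpa (316.1 CPM) stood apart from 3 dpa (200.2 CPM). With 7 dpa C (208 CPM, 12 reads) 7 dpa overlapped 3 dpa, and their difference did not pass (edgeR adjusted p = 0.735). The times 3 dpa, 1 dpa, 90 mpa, 3 hpa and 60 mpa overlapped in turn. Each of 6 hpa (121.9 CPM), 30 mpa (89.9 CPM) and 0 mpa (57.8 CPM) stood apart from the time ranked just above it. The 6 hpa libraries (97.2 to 146 CPM) nevertheless overlapped those of 3 hpa, 90 mpa and 1 dpa.

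Between neighbouring times, both calls among the 14 genes were the rises of ccn1.L and ccn1.S at 30 mpa. In the 7 later steps edgeR called 0 of 98 tests, with 7 at an unadjusted p under 0.05, and 1 passed in DESeq2. Few genes of any kind passed in those steps: 0.189% of all tested genes at 60 against 30 mpa, 0.0629% at 90 against 60 mpa, 0.0314% at 3 hpa against 90 mpa, 0.225% at 6 against 3 hpa, 0.332% at 1 dpa against 6 hpa, 0.723% at 3 against 1 dpa and 0.849% at 7 against 3 dpa. The DESeq2 call was ccn1.L, whose level at 90 mpa stood against 60 mpa at a log2 fold change of -1.57 ± 0.38 in edgeR (adjusted p = 0.0774) and -1.53 in DESeq2 (adjusted p = 0.017). The ccn1.L libraries of 90 mpa (48.3 to 93.8 CPM) and 60 mpa (185 to 267 CPM) did not overlap. In edgeR this step passed without 7 dpa C (adjusted p = 0.0149), 90 mpa A (0.0437) or 1 dpa B (0.0454).

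Within a library, the ratio of 2 genes does not depend on the scaling of library sizes. The log2 ratio of ccn1.L to ccn2.L reads was 0.37, 0.54 and -0.34 at 0 mpa, 1.08, 1.33 and 1.51 at 30 mpa, and 0.83, 0.25 and 0.29 at 60 mpa. From 90 mpa on it was negative in every library, between -0.59 in 3 hpa B and -4.64 in 7 dpa C, which had 0 reads of ccn1.L. The ratio of ccn1.S to ccn2.L was positive in the 3 libraries of 30 mpa (0.59 to 0.68) and negative in the other 24. Reads were not divided by gene length, so the sign of a ratio has no meaning without a comparison between times. The ccn1.L to ccn2.L ratios of 60 mpa overlapped those of 0 mpa. A permutation test of the time labels over the 27 libraries gave p = 1e-05 for either ratio, the smallest that its 100000 draws can give, and adjusted p = 1e-05 over the 2 ratios, with at most 8e-05 in any alternative. These 2 ratios were chosen after the levels had been seen.

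**Figure D2:**
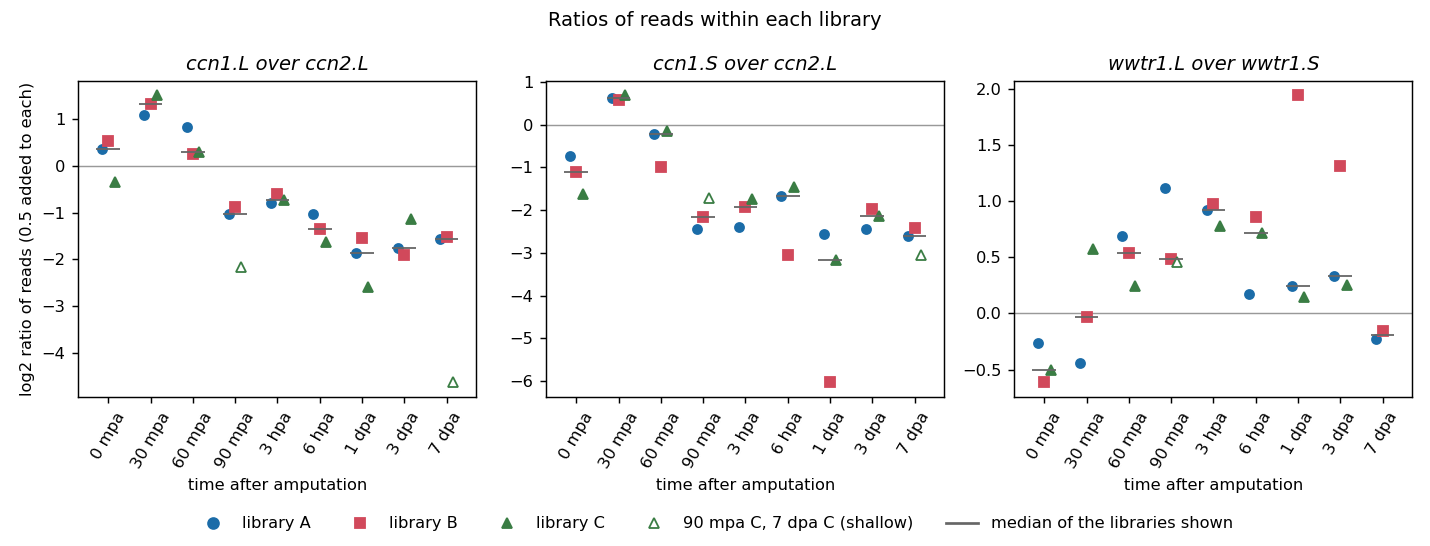
Log2 ratio of reads within each library (y axis, 0.5 added to each count) for ccn1.L over ccn2.L, ccn1.S over ccn2.L and wwtr1.L over wwtr1.S, against the time after amputation (x axis); points are libraries A, B and C, open points the shallow libraries and bars the median. The ccn1.L over ccn2.L ratio is highest in the libraries of 30 mpa. At 60 mpa it overlaps that of 0 mpa, and from 90 mpa on every library lies below those of 0 mpa.

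A change in the ratio of the ccn1 copies over the 9 times was not detected. ccn1.L took 71.6% of the summed ccn1 reads at 0 mpa, 61.7% at 30 mpa and 64.6% at 60 mpa, with the reads of the 3 libraries of a time pooled. The permutation test of the L to S log2 ratio over the 9 times gave p = 0.789 (adjusted p = 0.979 over the 6 genes with both copies) for ccn1. Across the 9 time means the Pearson correlation of ccn1.L with ccn1.S was 0.77, and 0.936 without 90 mpa C and 7 dpa C. With ccn2.L, the same correlation was -0.412 for ccn1.L and -0.119 for ccn1.S, and -0.0271 and -0.0203 without those 2 libraries; these are descriptions over 9 points that share library depth.

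The other 3 targets gave less. ankrd1.L, whose product is a muscle ankyrin repeat protein of the heart and of stressed skeletal muscle in mammals, had 0 to 18 reads per library and no call at any time (joint adjusted p = 0.887). Its highest level was 4.54 CPM, in 0 mpa B, and no later library stood above that level. At so few reads a fall or a small change of this gene could not be detected. amotl2 encodes an angiomotin-like protein that binds Yap and restrains it, and its transcription is itself raised by Yap in mammalian cells. amotl2.S was at 82.8, 88.7 and 76.6 CPM at 3 hpa and at 33.6, 26.0 and 33.5 CPM at 0 mpa, without overlap. It rose 2.66-fold at 3 hpa (log2 fold change 1.41 ± 0.38, adjusted p = 0.0191), and its change was 1.17 ± 0.39 at 90 mpa (adjusted p = 0.0846) and 1.22 ± 0.39 at 6 hpa (adjusted p = 0.0633). Both of the latter changes passed in some alternatives, such as the fit without 7 dpa C (0.042 at 90 mpa and 0.0258 at 6 hpa). Without the 3 shallow libraries the changes of amotl2.S at 1 dpa (0.94, adjusted p = 0.0244) and 3 dpa (0.99, adjusted p = 0.0126) passed as well.

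The 3 hpa call of amotl2.S was lost without 0 mpa A (adjusted p = 0.0672), 0 mpa B (0.143), 0 mpa C (0.0627), 3 hpa A (0.0599) or 3 hpa B (0.0798), and in DESeq2 (0.0807). amotl2.L was at 88.0, 91.2 and 77.6 CPM at 3 hpa and at 46.4, 36.8 and 53.5 CPM at 0 mpa, also without overlap, and its change of 0.91 ± 0.40 did not pass (adjusted p = 0.302), but did in the 6 libraries of those times alone (0.00395) and when the 5 libraries of low depth or complexity were left out (0.00713). The ratio of the amotl2 copies gave p = 0.38 (adjusted p = 0.761) in the permutation test, but adjusted p = 0.0146 without 3 dpa B, where amotl2.S exceeded amotl2.L by 472 to 250 reads. lats2, which encodes a LATS kinase and is induced by Yap in mammalian cells as a feedback, was sparse. lats2.L held 0 to 21.4 CPM and lats2.S 0 to 22.3 CPM over all libraries, and neither passed at any time with all libraries. The largest changes were 1.05 ± 0.73 for lats2.L at 90 mpa (adjusted p = 0.488) and 1.22 ± 0.63 for lats2.S at 3 hpa (adjusted p = 0.461). At 90 mpa, where the shallow library 90 mpa C had 0 reads, the change of lats2.S was 1.21 ± 0.64 (adjusted p = 0.322). It passed at 1.56 ± 0.47 without the 5 shallow or low-complexity libraries (adjusted p = 0.0298).

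**Figure D3:**
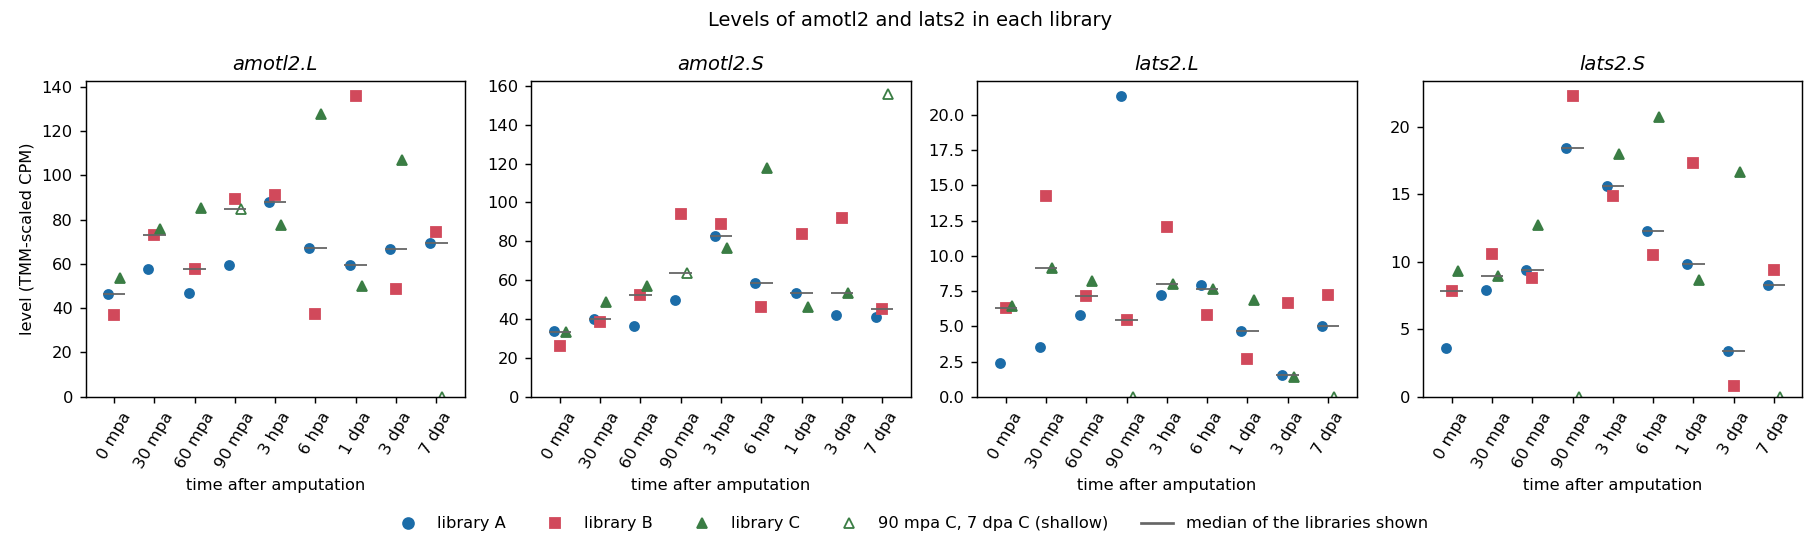
Level of amotl2.L, amotl2.S, lats2.L and lats2.S in TMM-scaled CPM (y axis) in each library against the time after amputation (x axis); points are libraries A, B and C, open points the shallow libraries and bars the median. amotl2.S at 3 hpa, between 76.6 and 88.7 CPM, lies above its 0 mpa libraries, and the 7 dpa C point of amotl2.S is 9 reads.

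Among the coactivators, the .L copy of the Taz gene moved most. wwtr1.L was at 39.2, 30.8 and 49.4 CPM at 0 mpa, at 36.7, 58.6 and 77.4 CPM at 30 mpa, and at 80.5, 110 and 71.7 CPM at 60 mpa. At 90 mpa it was at 136, 94.4 and 133 CPM, at 3 hpa at 160, 145 and 139 CPM, and at 6 hpa at 99.2, 127 and 169 CPM. Its levels were 95.2, 198 and 59.8 CPM in the 1 dpa libraries, 74.6, 110 and 76.7 CPM in those of 3 dpa, and 62.0 and 59.5 CPM in 7 dpa A and B, with 0 reads in 7 dpa C. Every library from 60 mpa to 3 dpa lay above those of 0 mpa, and 1 dpa had the widest spread.

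wwtr1.L rose 3.01-fold at 90 mpa (log2 fold change 1.59 ± 0.39, adjusted p = 0.00833), 3.72-fold at 3 hpa (1.90 ± 0.38, adjusted p = 0.000476) and 3.29-fold at 6 hpa (1.72 ± 0.38, adjusted p = 0.00242). It rose 2.95-fold at 1 dpa (1.56 ± 0.38, adjusted p = 0.00599) and 2.18-fold at 3 dpa (1.13 ± 0.38, adjusted p = 0.0448), and its change was 1.13 ± 0.38 at 60 mpa (adjusted p = 0.203) and 0.46 ± 0.39 at 7 dpa (adjusted p = 0.648). The 60 mpa change of wwtr1.L passed in 3 alternatives, with adjusted p = 0.00692 in the 6 libraries of those times alone, 0.0454 without the 3 shallow libraries and 0.00123 without all 5 libraries of low depth or complexity. The 3 and 6 hpa calls stood in all 35 alternatives. The 90 mpa call was lost without 0 mpa A (0.054) or 0 mpa B (0.0904), and the 1 dpa call without 0 mpa B (0.0761) or 1 dpa B, which cut the change to 0.96 (adjusted p = 0.205). Both calls were also lost in the 6 libraries of the compared times alone (0.0523 at 90 mpa and 0.0572 at 1 dpa). The 3 dpa call of wwtr1.L was lost in 21 of the 35 alternatives, with the highest adjusted p of 0.213 without 3 dpa B; among the other libraries of the compared times leaving out 0 mpa A gave 0.136, B of that time 0.207 and C 0.0583, and leaving out 3 dpa A or C gave 0.0736 and 0.0806.

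wwtr1.S did not pass at any time. It was at 47.1, 47.1 and 70.2 CPM at 0 mpa, at 84.8, 73.8 and 80.7 CPM at 3 hpa, and at 87.8, 70.1 and 103 CPM at 6 hpa, where its largest change was 0.65 ± 0.35 (adjusted p = 0.427; 95% interval -0.03 to 1.34). The difference between the copies was tested by their ratio. wwtr1.L took 64.9% of the pooled reads of both copies at 3 hpa and 42.1% at 0 mpa, and the log2 L to S ratio was positive in the 18 libraries from 60 mpa to 3 dpa and negative in the 3 of 0 mpa. The permutation test gave p = 0.0416 (adjusted p = 0.25 over 6 genes), and adjusted p = 0.0279 without 1 dpa B, where the ratio was 1.94 against 0.24 and 0.14 in 1 dpa A and C. Without the 5 shallow or low-complexity libraries the adjusted p of the wwtr1 ratio was 0.00798.

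**Figure D4:**
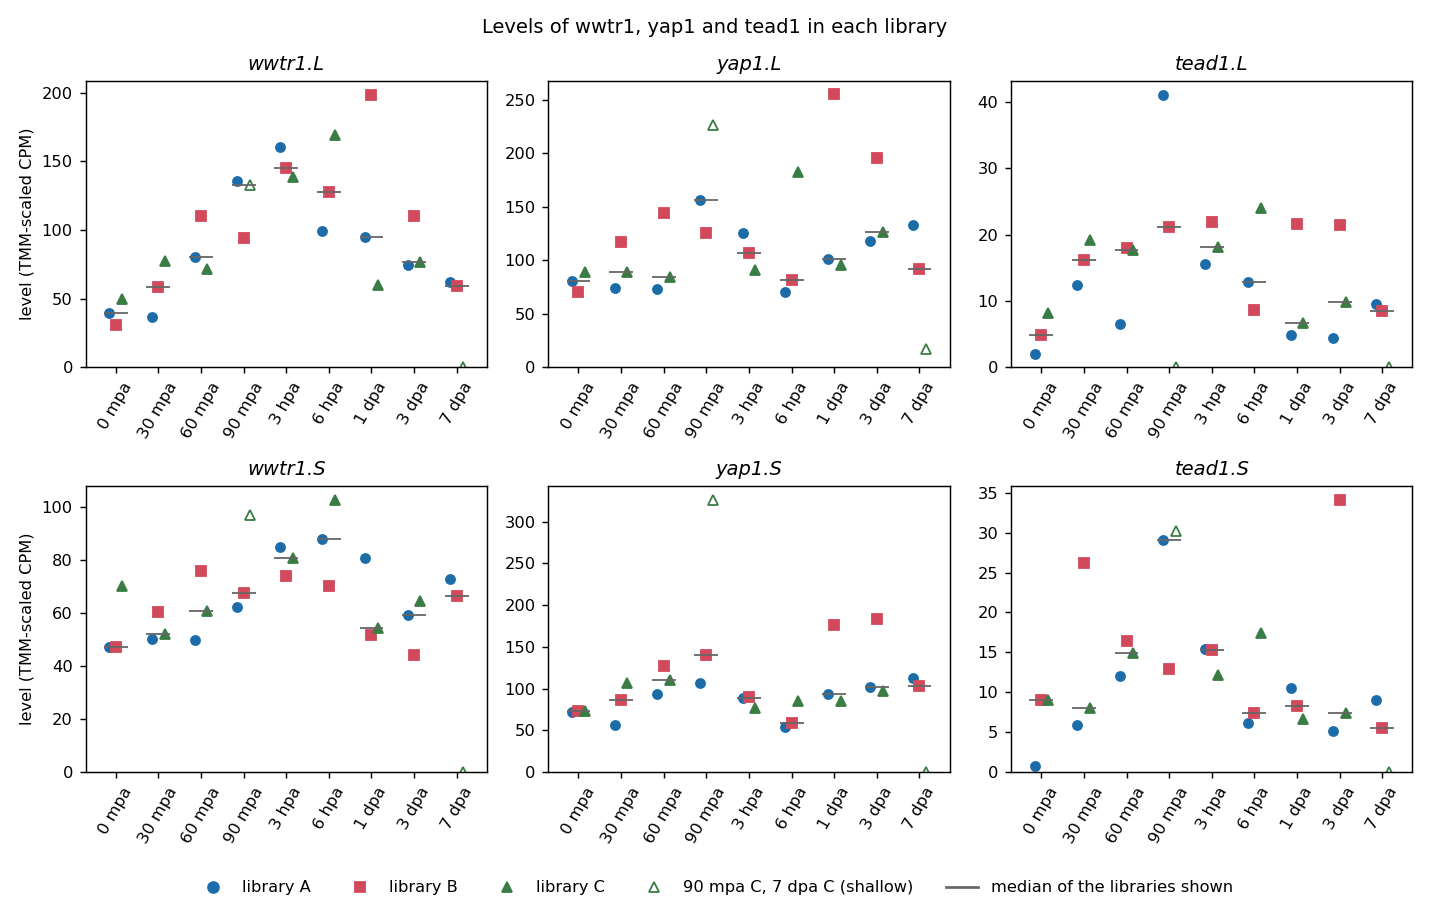
Level of the L and S copies of wwtr1, yap1 and tead1 in TMM-scaled CPM (y axis) in each library against the time after amputation (x axis); points are libraries A, B and C, open points the shallow libraries and bars the median. The wwtr1.L bar is highest at 3 hpa (libraries at 139 to 160 CPM), while its highest point, at 198 CPM, is 1 dpa B. The highest yap1.S point, at 326 CPM, is the shallow library 90 mpa C.

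The yap1 copies moved less. yap1.L was at 156, 126 and 227 CPM at 90 mpa and at 81.0, 70.6 and 88.9 CPM at 0 mpa, and this largest change of the gene, 1.05 ± 0.39, did not pass (adjusted p = 0.134). Without the 5 shallow or low-complexity libraries it did, at 0.82 (adjusted p = 0.0242). The 3 dpa change of yap1.L (0.87 ± 0.38, adjusted p = 0.16) passed in the 6 libraries of those times alone (0.0464) and without the 3 shallow libraries (0.0437). yap1.S was at 107, 140 and 326 CPM at 90 mpa, of which the last is 108 reads in 90 mpa C, and at 72.3, 72.9 and 73.2 CPM at 0 mpa. The groups of either copy did not overlap. The change of yap1.S at 90 mpa was 1.33 ± 0.39 (adjusted p = 0.0428), and 0.72 without 90 mpa C (adjusted p = 0.376), and 20 of the 35 alternatives lost it, including the fits without 0 mpa A (0.142), B (0.145) or C (0.115). At 3 hpa, where the mean of wwtr1.L was highest, the change of yap1.S was 0.23 ± 0.38 (adjusted p = 0.922) and that of yap1.L 0.42 ± 0.38 (adjusted p = 0.814).

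tead1, which encodes a DNA-binding partner of Yap and Taz, was sparse. tead1.L was at 41.1, 21.1 and 0 CPM at 90 mpa and at 1.92, 4.79 and 8.20 CPM at 0 mpa, so these groups overlapped. It was called at 90 mpa (2.25 ± 0.65, adjusted p = 0.037), with 0 reads in 90 mpa C. That call was lost without 0 mpa A (0.202), 0 mpa B (0.144), 90 mpa A (0.197), 90 mpa B (0.0537) or 3 hpa C (0.0528), and in the 6 libraries of those times alone (0.367). Across the 35 alternatives this change of tead1.L lay between 1.51, without 90 mpa A, and 2.83, without 0 mpa C. At 3 hpa tead1.L was at 15.6, 21.9 and 18.2 CPM, above all 3 libraries of 0 mpa, with a change of 1.89 ± 0.64 (adjusted p = 0.102; 0.0351 without 90 mpa C). tead1.S did not pass, with a largest change of 1.88 ± 0.66 at 90 mpa (adjusted p = 0.109).

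Counted over the 8 later times, the 14 genes gave 18 calls of 112 against 0 mpa, and in all 18 the later time was higher. Lower levels were not called in edgeR or DESeq2 (0 of 112 in each), and 0 of 112 had an unadjusted p under 0.05 in that direction. The counts were 2 of 14 at 30 mpa (0.377% of all genes tested were higher), 3 at 60 mpa (1.15%), 4 at 90 mpa (2.62%) and 3 at 3 hpa (3.12%). At 6 hpa 1 of 14 was higher (3.33%), and the days gave 2 on the first (1 dpa, 2.99%), 2 at 3 dpa (4.24%) and 1 at 7 dpa (2.63%). The median log2 fold change of the 14 was 0.56 at 30 mpa, 1.11 at 90 mpa and 0.41 at 7 dpa, beside 0.02, -0.09 and -0.01 over all genes. All 8 comparisons share the 3 libraries of 0 mpa, and without 0 mpa A, B or C the calls numbered 11, 9 and 11.

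**Figure D5:**
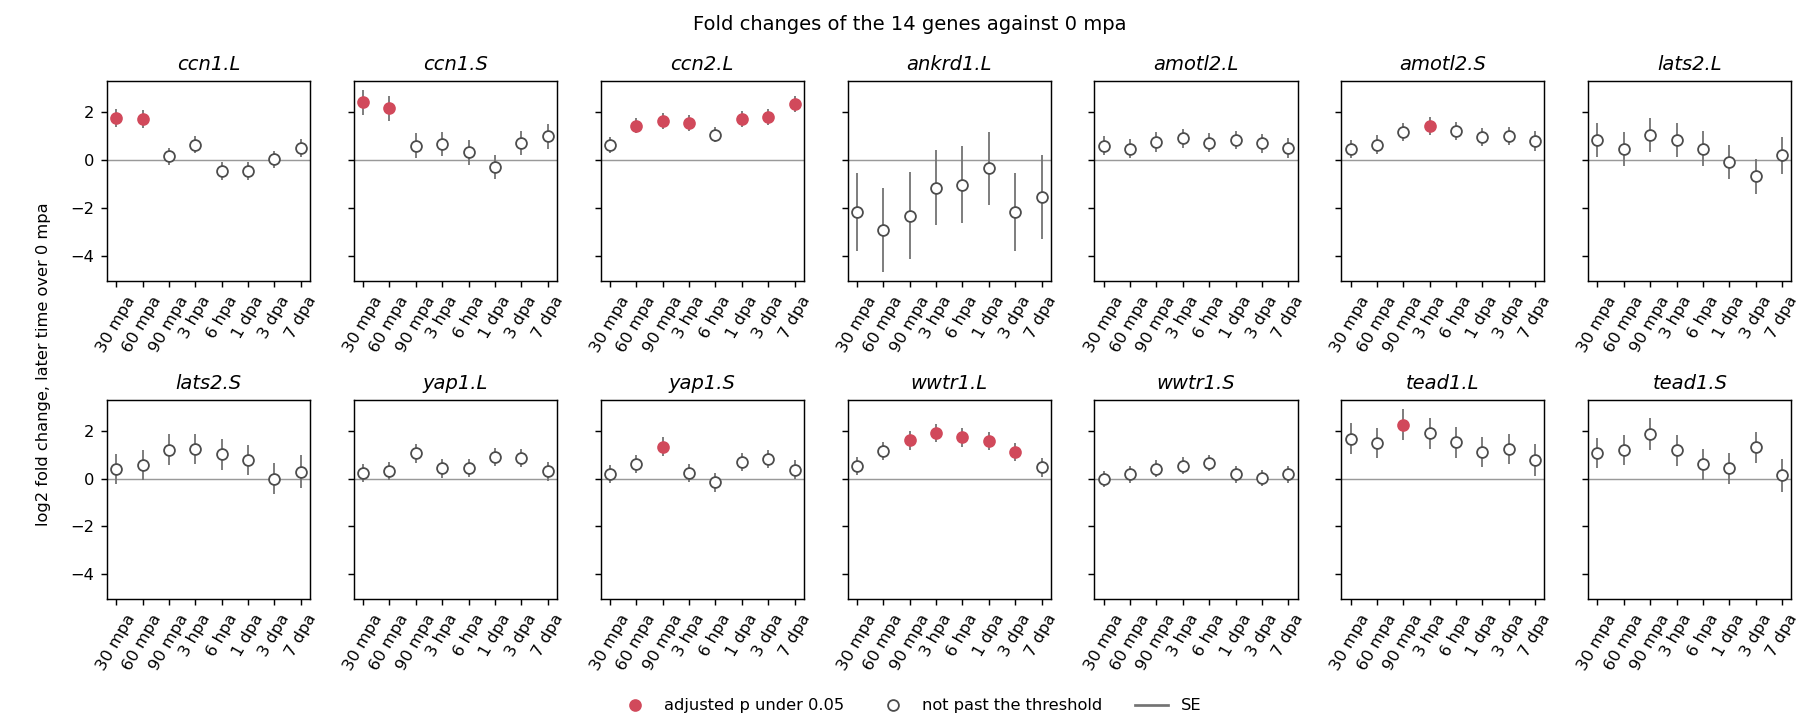
Log2 fold change of each of the 14 genes at the 8 later times over 0 mpa (y axis, positive where the later time is higher) by time (x axis); points are edgeR estimates, bars 1 SE, and filled points have an adjusted p under 0.05. The filled points fall at 30 and 60 mpa for both ccn1 copies, from 60 mpa to 7 dpa except 6 hpa for ccn2.L, from 90 mpa to 3 dpa for wwtr1.L, and at 1 time each for amotl2.S, yap1.S and tead1.L.

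Related genes were taken from lists drawn up with earlier results of these data known. Of the remaining CCN family, 3 rows were tested and 2 changed over the 9 times (15.8% of all genes did). These were ccn3.S and ccn3.L, which encode another matricellular protein of the family (Nov). ccn3.S averaged 124 CPM at 3 dpa and 17.2 CPM at 0 mpa (2.85 ± 0.40, adjusted p = 3.67e-07), and was called at 90 mpa, 3 hpa, 1 dpa, 3 dpa and 7 dpa. Of 17 rows of CCN receptors 7 changed (15.8% of all genes did), led by itga5.L, the integrin alpha 5 subunit. It averaged 190 CPM at 3 hpa and 60.6 CPM at 0 mpa (1.65 ± 0.34, adjusted p = 0.000657). sdc4.L, the heparan sulfate proteoglycan syndecan 4, averaged 103 CPM at 3 hpa and 13.6 CPM at 0 mpa (2.91 ± 0.53, adjusted p = 0.000257).

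Of 52 rows of the Hippo pathway core and its regulators 4 changed over the 9 times, a smaller share than the 15.8% of all genes tested: llgl1.S (adjusted p = 8.04e-08), amotl1.L (0.0191), wtip.S (0.0336) and fat4.S (0.0415). llgl1.S, a polarity protein gene, averaged 65.9 CPM at 3 dpa and 20.3 CPM at 0 mpa (1.70 ± 0.38, adjusted p = 0.0012). Of 9 rows of other TEAD and Vgll genes 5 changed (15.8% of all genes did). vgll4.L, whose product competes with Yap for TEAD in mammals, averaged 217 CPM at 3 hpa and 56.0 CPM at 0 mpa (1.95 ± 0.36, adjusted p = 9.74e-05), and tead4.S averaged 178 CPM at 3 hpa and 66.8 CPM at 0 mpa (1.41 ± 0.34, adjusted p = 0.00621).

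Of 37 rows of other genes reported as Yap targets in mammalian cells 15 changed over the 9 times (15.8% of all genes did). Of these rows 2 were higher at 30 mpa (0.377% of all genes were), 5 at 60 mpa (1.15%), 7 at 90 mpa (2.62%) and 6 at 3 hpa (3.12%). At 6 hpa 6 were higher (3.33%) and 1 lower (0.328%), and 3 were higher at 1 dpa (2.99%), 5 at 3 dpa (4.24%) and 6 at 7 dpa (2.63%). thbs1.L, a thrombospondin gene, averaged 96.1 CPM at 60 mpa and 23.4 CPM at 0 mpa (2.04 ± 0.37, adjusted p = 0.000152). Of 32 rows of serum response factor targets and cofactors 15 changed (15.8% of all genes did). Of these rows 4 were higher at 30 mpa (0.377%), 5 at 60 mpa (1.15%), 10 at 90 mpa (2.62%) and 6 at 3 hpa (3.12%). At 6 hpa 9 were higher (3.33%) and 1 lower (0.328%), and at 1 dpa 6 were higher (2.99%) and 1 lower (1.58%). At 3 dpa 5 were higher (4.24%) and 1 lower (4.98%), and at 7 dpa 5 were higher (2.63%) and 1 lower (5.31%). fos.L averaged 833 CPM at 30 mpa and 1.07 CPM at 0 mpa (9.54 ± 0.61, adjusted p = 9.27e-18). egr1.L averaged 2227 CPM at 60 mpa and 30.5 CPM at 0 mpa (6.19 ± 0.49, adjusted p = 3.93e-15), and at 30 and 60 mpa these immediate early genes were called together with both ccn1 copies. At 90 mpa and 3 hpa fos.L (means 450 and 436 CPM) and egr1.L (753 and 630 CPM) were also called, whereas neither ccn1 copy was.

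Summed RNA levels of tissue markers differed over the same times, and any part of tissue content in the results above was not tested. The summed level of the 25 skeletal muscle rows was 8324 and 9131 CPM in 7 dpa A and B, 6726 CPM in 7 dpa C, and 137700 to 231400 CPM at 0 mpa. Of the 22 tested muscle rows 2 were lower at 6 hpa (0.328% of all genes were) and 14 on the first day (1 dpa, 1.58%), then 19 at 3 dpa (4.98%) and 19 at 7 dpa (5.31%), and the last 3 are the times of the highest ccn2.L means. The 13 erythroid rows summed to 7845 to 11620 CPM at 30 mpa and 995 to 4872 CPM at 0 mpa, with 0 of 10 tested rows called at 30 mpa in edgeR or DESeq2, 8 of 10 at an unadjusted p under 0.05 in each, and edgeR changes of 0.72 to 2.23. Of these 10 rows 7 were lower at 3 dpa (4.98% of all genes were) and 8 at 7 dpa (5.31%). Of 18 tested notochord rows 7 were higher and 3 lower at each of those times, at which ccn2.L had its highest means. The summed level of the 19 notochord rows was lower there, at 5770 to 6653 CPM at 3 dpa and 8950 to 11000 CPM at 0 mpa. In 7 dpa A and B it was 6632 and 6680 CPM. Of all genes, 4.24% were higher and 4.98% lower at 3 dpa, and 2.63% were higher and 5.31% lower at 7 dpa. The 17 leukocyte rows summed to 597 to 874 CPM at 6 hpa and 183 to 264 CPM at 0 mpa. Of 13 tested leukocyte rows 3 were higher at 6 hpa (3.33% of all genes were). The 16 fibroblast rows summed to 27550 and 26610 CPM in 7 dpa A and B, and to 39240 to 48130 CPM at 0 mpa. In the shallow library 7 dpa C they summed to 8234 CPM. Of these 16 rows 3 were lower at 7 dpa (5.31% of all genes were). The 15 epidermis rows summed to 1286 and 1342 CPM in 7 dpa A and B, and to 2989 to 3176 CPM at 0 mpa. Of these 15 rows 2 were higher at 3 hpa (3.12% of all genes were), 6 at 6 hpa (3.33%) and 3 at 1 dpa (2.99%). At 3 dpa 1 was higher (4.24%) and 4 were lower (4.98%), and at 7 dpa 5 were lower (5.31%).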

How the data were processed

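The authors deposited whole-number counts per gene for 27 libraries. Per the labels, 100 ng of total RNA went into the Lexogen SENSE Total RNA kit and libraries were read as paired 76 bases. Per the submitters' processing notes the tools were, without stated roles, HTSeq 0.6.1p1, STAR 2.7.9a, R 4.1.0 and DESeq2 1.32.0. No source used here gives the genome build, annotation or strand setting, so reads of genes that overlap on either strand cannot be separated, and reads may be split between homeologs.

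Counts were analysed in edgeR 4.0.16 (R 4.3.3): filterByExpr by time, TMM scaling, 1 robust quasi-likelihood fit over all libraries, prior count 0.125, Benjamini-Hochberg adjustment over 22268 genes, threshold 0.05. SE is the log2 fold change over the square root of F. DESeq2 1.42.0, other scaling, no filter, separate fits, a replicate block and left-out libraries were alternatives. Ratios within a library (0.5 added, at least 10 summed reads) were tested by permuting time labels 100000 times. The edgeR steps were tested on simulated data. All 14 genes matched the RefSeq gene table by symbol.

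The genes, lists and tests were chosen with earlier results of these data known. Named from each list were up to 4 genes with the smallest joint p and a mean of at least 5 CPM at their highest time.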

Additional observations from a re-analysis of the deposited data

How the results depend on the processing

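Under 35 alternatives (27 leaving out 1 library, 8 others) 7 of the 18 calls against 0 mpa were kept throughout, 11 were lost in at least 1, and 0 changed direction. Leaving out the 5 libraries that were shallow or of low complexity raised the members changed over the 9 times to 9, against 4 with all libraries. Over all genes the number rose from 3524 to 6311 in the same fit, so the gain was not confined to the members. For the calls against 0 mpa and between neighbouring times, counts over all genes were not made in the alternatives. With all libraries yap1.S (adjusted p = 0.0559) also passed under RLE scaling (0.0279), no filter (0.0169) and DESeq2 (0.0171). The number of calls against 0 mpa was 18, and 29 without those 5; leaving out 1 library gave 9 to 22. Calls between neighbouring times numbered 2, then 4 with no filter, 7 without those 5, and 1 without 90 mpa C and 7 dpa C (chosen after seeing the data); leaving out 1 library gave 0 to 3. L to S ratios passed for 0 of 6 genes (1 at an unadjusted p under 0.05), 2 without those 5, and 0 to 1 leaving out 1 library. With the replicate block, 4 members changed, 17 calls stood against 0 mpa and 2 between neighbours. The deviations of same-letter libraries had a median r of 0.00414 over 108 pairs, of which 8 were over 0.1. Other pairs had a median of -0.00269 over 216, of which 7 were over 0.1, and the letters were not taken to pair the libraries.

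The scaling of edgeR's RLE method moved the median log2 fold change of all genes by up to -0.145 (6 hpa) and that of DESeq2 by up to -0.149, and neither changed a direction among the 18 calls. The shallow libraries limit the sparse genes (ankrd1, lats2, tead1) and 7 dpa, which rests on 2 libraries.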

Other observations

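Genes whose 9 time means were most like those of a member depended on the shallow libraries, and are given as descriptions over 9 points. With all libraries, the 5 most like ccn1.L were h1-6.L (r = 0.965), nlgn2.S (r = 0.962), ddit4.L (r = 0.96), sgk1.L (r = 0.959) and rgs2.S (r = 0.957). For ccn1.S hmgb2.S (r = 0.916) and kcnj8.S (r = 0.89) led, and for ccn2.L nes.S (r = 0.922), cav1.L (r = 0.905) and ccn3.S (r = 0.901). Without 90 mpa C and 7 dpa C (chosen after seeing the data), h2ax.2.L (r = 0.936) led for ccn1.L, scrn3.L (r = 0.932) for ccn1.S and sbf2.L (r = 0.973) and wnt5a.S (r = 0.951) for ccn2.L, and 0 of the 15 genes named were shared between the 2 settings. Neither scrn3.L nor sbf2.L changed over the 9 times (adjusted p = 0.968 and 0.566).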
